A study of Rattus norvegicus with 29 samples.

Results

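The genes described here encode the cytoskeleton of neurons: tubulins, actins and actin regulators, microtubule-associated proteins, stathmins, neurofilaments, growth cone proteins, motors and the spectrin and ankyrin scaffold under the membrane. They were chosen by symbol. A gene counted as measured where the platform's probe-to-gene table gave a probe set that symbol and no other, and the brightest such probe set over all arrays stood for the gene. Of the 52 genes listed, 47 had a probe set of their own, and all 47 lay above the filter on dim probe sets; 14217 genes on the array had such a probe set and 11328 passed the filter. Tuba1a, Tuba1b, Tuba1c, Actb and Cfl1 had none and are described through probe sets they share with near-identical genes.

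Expression was measured with 29 Affymetrix rat arrays in the nucleus accumbens shell, a striatal region that takes part in reward, of P rats, the alcohol-preferring line that was bred by selection for voluntary ethanol drinking. All groups were P rats, so no group had another genetic background. The groups were labelled Water_only (9 arrays), Limited_Ethanol (10 arrays, ethanol offered for restricted periods) and Continuous_ethanol (10 arrays). The labels gave neither the hours of access, the amount drunk nor the age or sex of the rats. Nor do they say whether arrays of a group were different rats, so the spread that the p-values rest on is that of the deposited samples and may be technical. The design text named 10 samples a group; 1 further water sample was not analysed here. The deposited values were log2 expression values. A difference of 0.10 on this scale is small against the range of the table, which ran from 4.04 to 16.04.

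Microtubules are polar tubes of alpha- and beta-tubulin that run along axons and dendrites, carry motor proteins and are stabilised by associated proteins such as tau and MAP2. Actin filaments shape dendritic spines and growth cones, and cofilin, profilin and the Arp2/3 complex govern their turnover. Neurofilaments set the calibre of large axons, and medium spiny neurons, the main cells of the accumbens, remodel their spines and dendrites throughout adult life.

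Of 12 markers of medium spiny neurons (Drd1, Drd2, Penk and others), 11 were on the array and all of these lay above the filter. The 7 markers of cortical excitatory neurons and the 8 of astrocytes on the array also did, so passing the filter does not identify the source. A set of 5 arrays stood apart at the low end of the second principal component of probe sets above the filter (-22.2 to -15.6). They were water replicates 2, 5 and 6 and limited access replicates 6 and 7, and none was from the continuous ethanol group. Continuous ethanol replicate 4 lay farthest out at the other end, at 20.2, and was not counted among them. Counts, and the values of some genes, are given with and without the 5 arrays. Array medians lay between 8.17 and 8.21. Their number limits the precision, and the standard error of a difference was 0.04 at the median of the 47 genes.

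No gene of the cytoskeletal set passed an adjusted p of 0.05 in any comparison. Continuous ethanol against water called 0.152% of all 21729 probe sets and 0.15% of genes, limited access against water called 0%, and limited access against continuous ethanol called 0.0046% of probe sets and 0% of genes, all by limma with Benjamini-Hochberg adjustment. The F test over the 3 groups called 0.0828% of probe sets. At an unadjusted p under 0.05, 15 of the 47 genes differed between continuous ethanol and water (31.9%), against 16.7% of all genes. Of these, 13 were higher with continuous ethanol (27.7%, all genes 10.4%) and 2 lower (4.26%, all genes 6.35%). Among the 637 genes at least as bright as the median of the set, a background chosen after the values were seen, the share was 10.7%. That background is not matched in level, since many of the 47 genes are dimmer, such as Dcx at 9.20 and Map6 at 9.75. The 13 were Tubb2b, Tubb2a, Arpc3, Cfl2, Pfn2, Marcks, Crmp1, Map2, Map6, Dcx, Stmn1, Stmn3 and Ank2, and the 2 were Sptan1 and Mapt. Without the 5 arrays that stood apart the count was 9 of 47 (19.1%), against 10.2% of all genes, and with those arrays as a block it was 6 (12.8%), against 8.13%. After a further quantile normalization it was 10 (21.3%), against 15.9% of all genes. With leptomeningeal markers as a covariate it was also 10 (21.3%), against 15.5%.

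The differences were small. Continuous ethanol minus water ran from -0.10 for Tubb6 to 0.42 for Kif5c, with a median of 0.04 over the 47 genes and 0.01 over all genes, and the median was 0.02 without the 5 arrays. Of the 47 differences, 33 were above 0 (70.2%, all genes 53.1%), and 29 were above 0 after a further quantile normalization. The 95% confidence interval lay within 0.3 of zero on both sides for 45 of the 47 genes, the exceptions being Dcx and Kif5c. Markers of neurons were read beside these values. Of 5 general markers of neurons, 3 had a higher mean with continuous ethanol than with water and 2 a lower one (median 0.01). They ran from -0.02 for Eno2 to 0.03 for Rbfox3. Of the 11 markers of medium spiny neurons, 10 had a lower mean with continuous ethanol than with water, with a median difference of -0.05; the lowest was Rgs9 at -0.20 ± 0.06 (adjusted p 0.150, limma). Of 7 markers of cortical excitatory neurons, which a striatal dissection could include, 6 had a higher mean with continuous ethanol (median 0.08) and 7 with limited access (median 0.13). None of these markers passed, and their part in the cytoskeletal differences was not tested. Because bulk tissue was measured, more cells of a type and more RNA per cell cannot be told apart for any of these values.

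**Figure D1:**
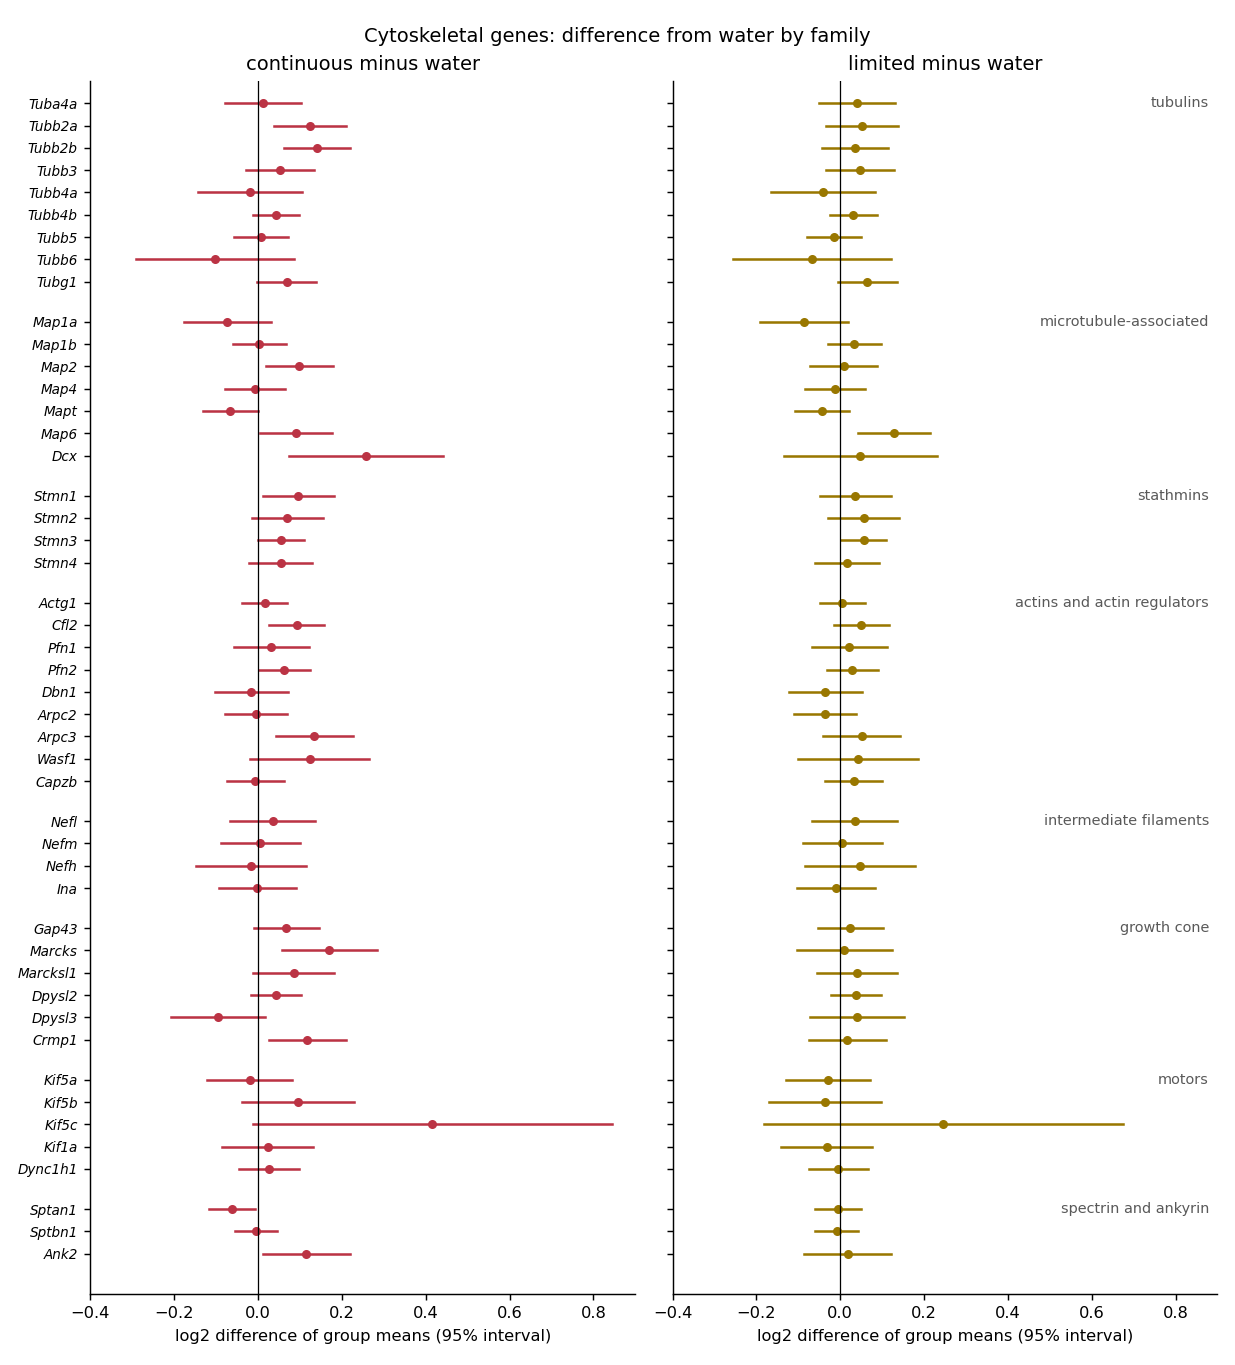
Difference of each of the 47 cytoskeletal genes on the log2 scale, by family, for continuous ethanol minus water and limited access minus water; points are limma estimates and bars 95% confidence intervals. Continuous ethanol differences run from -0.10 for Tubb6 to 0.42 for Kif5c, and no gene passed the adjusted threshold in either comparison.

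Among the tubulins, the beta-tubulins Tubb2b and Tubb2a had the largest positive differences. They are isotypes of beta-tubulin abundant in neurons, and they neighbour each other on chromosome 17 in the same orientation. Whether their probes also bind transcripts of the other gene was not tested. Their promoters are shown together with that of Marcks. These genes were picked by name from the 6 of smallest p over the 3 groups, and the promoters of Map6, Dcx and Arpc3, also among the 6, are not shown. Each promoter shown is the 250 bases before the transcription start, from RefSeq on GRCr8, 5′ to 3′ on the gene's strand, with capitals for matches to the motifs named after them.
Tubb2a, chr17:31001936-31002185, plus strand: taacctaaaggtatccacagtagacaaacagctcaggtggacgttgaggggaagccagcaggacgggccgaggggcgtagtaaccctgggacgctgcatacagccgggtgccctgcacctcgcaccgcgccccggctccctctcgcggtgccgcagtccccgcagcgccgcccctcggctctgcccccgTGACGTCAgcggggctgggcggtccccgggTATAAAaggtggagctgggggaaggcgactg
Tubb2b, chr17:30952836-30953085, plus strand: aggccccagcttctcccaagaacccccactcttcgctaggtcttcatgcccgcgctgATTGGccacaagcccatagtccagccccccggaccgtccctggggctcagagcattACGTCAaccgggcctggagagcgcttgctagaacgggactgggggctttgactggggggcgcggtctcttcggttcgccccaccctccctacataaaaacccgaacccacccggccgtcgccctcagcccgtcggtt
Marcks, chr20:42245883-42246132, minus strand: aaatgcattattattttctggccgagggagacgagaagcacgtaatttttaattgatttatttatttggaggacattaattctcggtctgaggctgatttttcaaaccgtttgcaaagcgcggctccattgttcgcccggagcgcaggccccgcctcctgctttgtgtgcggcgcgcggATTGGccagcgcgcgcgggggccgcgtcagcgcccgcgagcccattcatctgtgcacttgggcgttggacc

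The Tubb2a promoter held the cyclic AMP response element TGACGTCA 61 bases before the start and the TATA box TATAAA 31 bases before it. In Tubb2b there was the shorter ACGTCA, 137 bases before the start, and ATTGG, the reverse complement of the CCAAT box, 193 bases before it. ATTGG also stood 71 bases before the start of Marcks. These motifs were searched on both strands, apart from TATAAA, which was searched on the gene's strand, and the shorter element lies within the longer one, so a full match is counted under both. Over the 40 of 52 genes with a promoter in the table, TGACGTCA was found in 2 (5%; Tubb2a and Kif5c) against 1.70% of 27457 promoters of this length. ACGTCA was in 4 (10%) against 7.25%, TATAAA in 5 (12.5%) against 8.38%, CCAAT in 18 (45%) against 34.3%, and the AP-1 motif TGANTCA in 0 against 6.36%. The matches describe letters only, and no binding was measured.

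Tubb2b values in water ran from 11.58 to 11.78 with a median of 11.72, in limited access from 11.59 to 11.89 with a median of 11.73, and in continuous ethanol from 11.73 to 11.93 with a median of 11.84. All 10 continuous ethanol arrays lay above the water mean, while the ranges of these groups overlapped. The difference was 0.14 ± 0.04 (SE; 95% interval 0.06 to 0.22), with an adjusted p of 0.132 by limma, the smallest in the set. It was 0.13 without the 5 arrays, with an adjusted p of 0.365. Limited access differed from water by 0.04 (adjusted p 0.972, limma) and from continuous ethanol by -0.11 ± 0.04 (adjusted p 0.526, limma).

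Tubb2a lay between 14.34 and 14.61 in water (median 14.53), between 14.31 and 14.66 in limited access (median 14.57) and between 14.52 and 14.72 in continuous ethanol (median 14.62). Every continuous ethanol array was above the water mean here too, and the lowest of them lay inside the water range. The difference from water was 0.12 ± 0.04 with an adjusted p of 0.179 in limma. Tubb2a was lower in the arrays that stood apart, which were 0.15 below the other water arrays and 0.24 below the other limited access arrays. Leaving them out gave a smaller difference, 0.08 (adjusted p 0.462, limma).

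The other tubulins differed by less. Tubb3, the beta-tubulin used as a marker of neurons, differed by 0.05 ± 0.04 (adjusted p 0.519, limma), from 11.06 ± 0.11 in water (SD, n = 9) to 11.11 ± 0.07 in continuous ethanol (SD, n = 10). Gamma-tubulin 1 (Tubg1), which nucleates microtubules, differed by 0.07 with continuous ethanol and by 0.06 with limited access, adjusted p 0.324 and 0.972 in limma. The lowest difference of the family was that of Tubb6, -0.10 ± 0.09, and it was -0.01 without the 5 arrays. Endothelial and mural markers, listed because the dissection could hold vessels, had a mean score of 0.08 in water, 0.01 in limited access and -0.08 in continuous ethanol on the log2 scale, and their part in the Tubb6 value was not tested. In all, 7 of the 9 measured tubulins were above 0 with continuous ethanol (5 after a further quantile normalization), 2 of them (22.2%) at an unadjusted p under 0.05, with a median of 0.04. Over all genes 53.1% were above 0 and 16.7% had such a p. The tubulin share with such a p was near the background, and the share above 0 was 77.8% before the further normalization. The probe set shared by Tuba1a, Tuba1b and Tuba1c, the main neuronal alpha-tubulins and their close relatives, differed by 0.01 ± 0.03 with continuous ethanol (95% interval -0.04 to 0.07, adjusted p 0.825 in limma) and by 0.01 with limited access.

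Of the 9 measured actins and actin regulators, 6 (66.7%) were above 0 with continuous ethanol and 3 (33.3%) had an unadjusted p under 0.05, against 53.1% and 16.7% of all genes. Arpc3, a subunit of the Arp2/3 complex that branches actin filaments, had the largest value. It lay between 12.61 and 12.89 in water (median 12.82), between 12.55 and 13.00 in limited access (median 12.85) and between 12.82 and 12.99 in continuous ethanol (median 12.93). The continuous ethanol arrays all lay above the water mean, and their range overlapped that of water. The difference was 0.13 ± 0.04 with an adjusted p of 0.179 in limma, and 0.10 without the 5 arrays, which were 0.11 (water) and 0.24 (limited access) below the rest of their groups. Arpc2, another subunit of that complex, differed by -0.00 ± 0.04 (adjusted p 0.970, limma).

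Cofilin 2 (Cfl2), which severs actin filaments, ran from 11.54 to 11.78 in water (median 11.63), from 11.52 to 11.76 in limited access (median 11.72) and from 11.70 to 11.84 in continuous ethanol (median 11.73). The continuous ethanol arrays were the least spread; their range overlapped the upper part of the water range and reached above it. The difference was 0.09 ± 0.03 with an adjusted p of 0.191 in limma. The dimmer probe set of Cfl2 gave 0.19 ± 0.07 (adjusted p 0.187, limma). Profilin 2 (Pfn2), the neuronal profilin that binds actin monomers, differed by 0.06 ± 0.03 (adjusted p 0.302, limma), and drebrin (Dbn1), an actin-binding protein of spines, by -0.02 ± 0.04, the lowest of the family. Gamma-actin (Actg1) was nearly level on its brightest probe set, at 14.81 ± 0.04 in water (SD, n = 9) and 14.82 ± 0.06 in continuous ethanol (SD, n = 10), a difference of 0.02 ± 0.03 (adjusted p 0.804, limma). The dimmer probe set of Actg1 gave 0.09 (unadjusted p 0.140, limma). The probe set shared by Cfl1 and Cfl1l1 differed by -0.00 ± 0.04 (adjusted p 0.968, limma).

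Actb, encoding beta-actin, has no probe set of its own in the main table, but the array carries control probe sets along its transcript, which were left out of the fit. The 3′ probe set averaged 13.56 ± 0.07 in water (SD, n = 9), 13.59 ± 0.06 in limited access (SD, n = 10) and 13.60 ± 0.05 in continuous ethanol (SD, n = 10). The middle probe set averaged 12.77, 12.82 and 12.73 in the same order, and the 5′ probe set 12.37, 12.42 and 12.33. The 3′ signal was highest and the middle and 5′ signals lowest in continuous ethanol. Against water, continuous ethanol differed by 0.03 at the 3′ probe set, -0.03 at the middle and -0.04 at the 5′. The exact permutation p was 0.236, 0.372 and 0.273 in that order. The 3′ minus 5′ difference, often read as a measure of RNA integrity, was 1.20 ± 0.05 in water (SD, n = 9), 1.17 ± 0.09 in limited access (SD, n = 10) and 1.27 ± 0.08 in continuous ethanol (SD, n = 10). It was 0.08 higher in continuous ethanol than in water (exact two-sided permutation p = 0.0219, adjusted over 12 tests 0.0843) and 0.10 lower in limited access than in continuous ethanol (exact p = 0.0147, adjusted 0.0843). None of the 12 exact tests passed after adjustment, and 4 had an unadjusted p under 0.05. Without continuous ethanol replicate 9, 4 tests passed, the smallest adjusted exact p being 0.0142, and without limited access replicate 3, 3 passed. The mean 3′ to 5′ signal of beta-actin and GAPDH was also used as a covariate in limma. For continuous ethanol against water, 12 of the 47 genes (25.5%, all genes 13.5%) then had an unadjusted p under 0.05. The probe sets shared by Actb with Actg1 and Actg1l1 differed from water by 0.03 ± 0.04 and -0.04 ± 0.04 with continuous ethanol (adjusted p 0.763 and 0.666, limma).

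**Figure D2:**
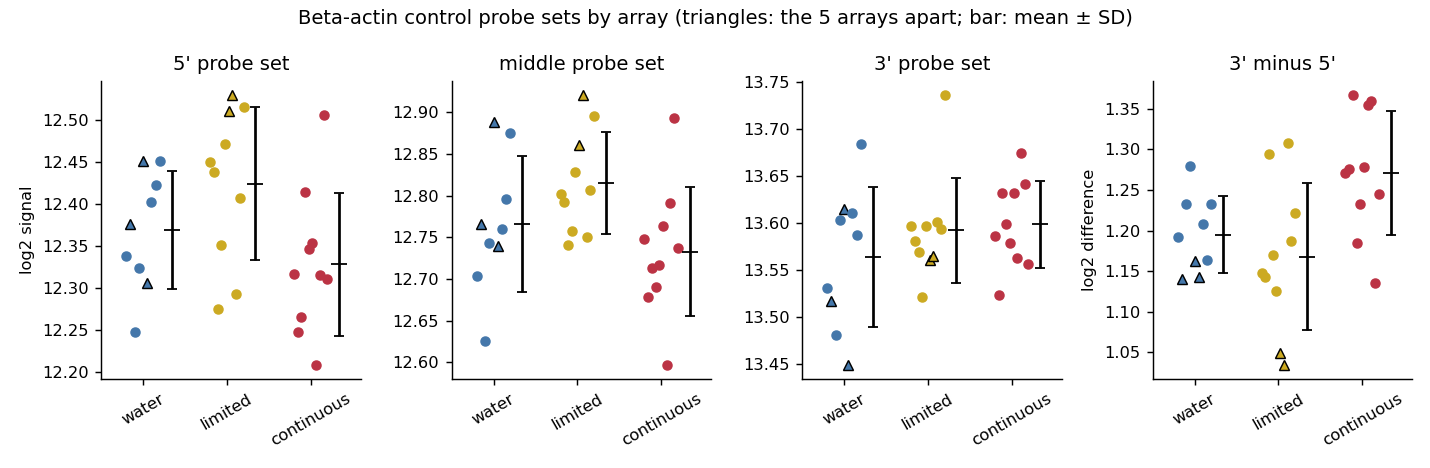
Log2 signal of the 5′, middle and 3′ beta-actin control probe sets and the 3′ minus 5′ difference in each array by group, with the group mean and SD. The 3′ minus 5′ difference averages 1.20 in water, 1.17 in limited access and 1.27 in continuous ethanol.

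The microtubule-associated proteins were mixed, with 4 of 7 (57.1%, all genes 53.1%) above 0 for continuous ethanol against water (3 after a further quantile normalization) and a median of 0.00. Doublecortin (Dcx), which binds microtubules in migrating and newly born neurons, ran from 8.94 to 9.45 in water (median 9.07), from 8.86 to 9.30 in limited access (median 9.21) and from 9.03 to 9.98 in continuous ethanol (median 9.25). The continuous ethanol group was the most spread, and its range overlapped both others. Its difference from water with continuous ethanol was 0.26 ± 0.09 (95% interval 0.07 to 0.44), with an adjusted p of 0.187 in limma. That of limited access from continuous ethanol was -0.21 ± 0.09 (adjusted p 0.526, limma). Over 15 alternative settings of the processing the first ran from 0.08 to 0.31 (adjusted p 0.0916 to 0.615, limma) and the second from -0.32 to -0.05. Only 1 of the 2 probe sets of Dcx lay above the filter.

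Other markers of immature neurons were read beside Dcx. Of 10 listed, 9 were on the array and 6 above the filter; Sox11 and the proliferation markers Top2a and Mki67 were below it. All 6 had a higher mean in continuous ethanol than in water, with a median difference of 0.12, though none passed the test in limma. Igfbpl1 differed by 0.30 ± 0.09, Dlx1 by 0.29 ± 0.13 and Sox4 by 0.15 ± 0.05, with adjusted p of 0.153, 0.275 and 0.154 in limma, and the lowest was Cd24 at 0.01. The score of the list averages all 9 markers on the array, those below the filter included. It ran from -0.28 to 0.03 in water, from -0.10 to 0.09 in limited access and from -0.04 to 0.22 in continuous ethanol. The highest score, in continuous ethanol replicate 4, belonged to the array with the highest Dcx value, without which the Dcx difference from water was 0.19. The part of such cells in the Dcx value was not tested.

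Map2, the dendritic microtubule-associated protein, ran from 13.54 to 13.81 in water (median 13.67), from 13.51 to 13.82 in limited access (median 13.70) and from 13.63 to 13.88 in continuous ethanol (median 13.76). Water and limited access were nearly level, and continuous ethanol lay slightly above both with wide overlap. The difference from water was 0.10 ± 0.04 and that of limited access from continuous ethanol -0.09 ± 0.04, with adjusted p of 0.225 and 0.526 in limma. Tau (Mapt), the axonal counterpart, differed in the other direction, by -0.07 ± 0.03 (adjusted p 0.301, limma), with 2 of 10 continuous ethanol arrays above the water mean. Its dimmer probe sets differed by 0.00 ± 0.06 and 0.00 ± 0.05, so the small difference stood on 1 of 3 probe sets. Map1a, which binds microtubules in mature dendrites, differed by -0.07 ± 0.05 with continuous ethanol and by -0.09 ± 0.05 with limited access, the lowest of the set in the latter comparison (adjusted p 0.972, limma).

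Map6, a protein that keeps microtubules stable in the cold, was the gene that differed most, by p, between limited access and water. It ran from 9.52 to 9.80 in water (median 9.66), from 9.70 to 9.90 in limited access (median 9.82) and from 9.65 to 9.91 in continuous ethanol (median 9.76). All 10 limited access arrays lay above the water mean, and their lower part overlapped the water range. The difference was 0.13 ± 0.04 (unadjusted p 0.00463, adjusted 0.972, limma), and it was 0.09 ± 0.04 for continuous ethanol (adjusted p 0.281, limma). The other probe sets of Map6 gave -0.11 and -0.03 for continuous ethanol and did not show this direction. For limited access they gave -0.05 and 0.08. On the brightest probe set, the arrays that stood apart were 0.10 below the other water arrays and 0.04 above the other limited access arrays.

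**Figure D3:**
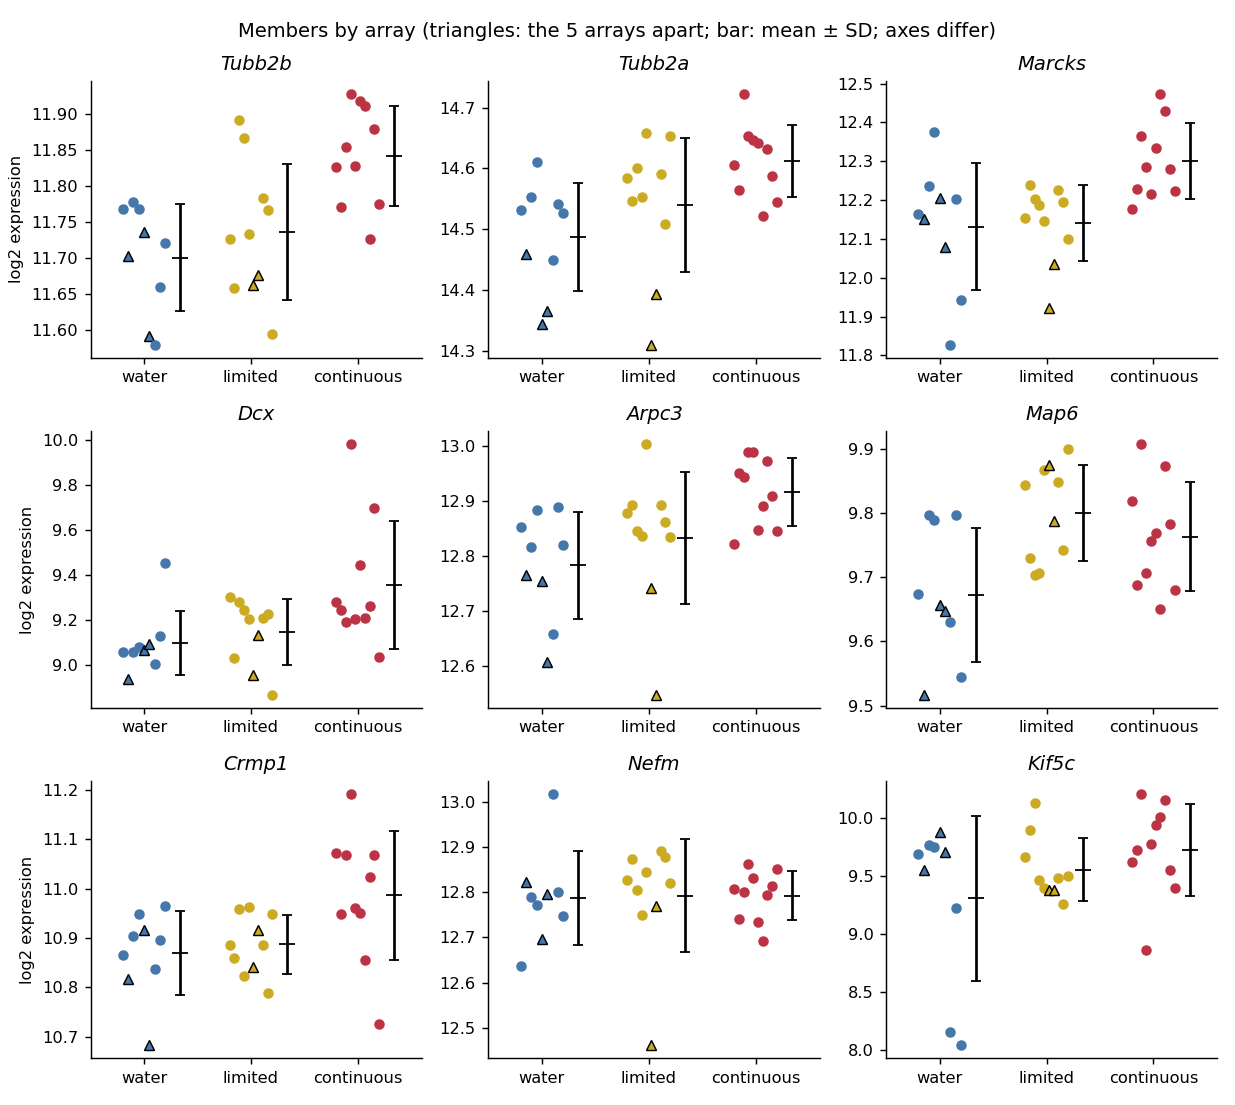
Log2 values of Tubb2b, Tubb2a, Marcks, Dcx, Arpc3, Map6, Crmp1, Nefm and Kif5c in each of the 29 arrays by group; triangles mark the 5 arrays that stood apart, and bars give the group mean and SD. The groups overlap in every panel; Tubb2b has all 10 continuous ethanol arrays above the water mean of 11.70, and Kif5c has low water arrays at 8.04 and 8.15.

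The 4 stathmins, which bind tubulin dimers and destabilise microtubules, all had a higher mean in both ethanol groups than in water. Over all genes 53.1% were above 0 with continuous ethanol and 48.5% with limited access, and both comparisons used the same 9 water arrays. With continuous ethanol they differed by 0.05 (Stmn4) to 0.10 (Stmn1), and with limited access by 0.02 (Stmn4) to 0.06 (Stmn3). Stmn1, the general stathmin, was 14.19 ± 0.09 in water (SD, n = 9) and 14.29 ± 0.06 in continuous ethanol (SD, n = 10), with an adjusted p of 0.255 in limma. Stmn3 lay between 13.26 and 13.45 in water (median 13.39), between 13.37 and 13.51 in limited access (median 13.44) and between 13.38 and 13.49 in continuous ethanol (median 13.43). The 2 ethanol groups were level with each other and overlapped the upper part of the water range. Each differed from water by 0.06 ± 0.03, with adjusted p of 0.303 for continuous ethanol and 0.972 for limited access in limma. The continuous ethanol difference was 0.03 for Stmn3 and 0.06 for Stmn1 without the 5 arrays.

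Neurofilament subunits and alpha-internexin (Ina), the axonal intermediate filaments, were level across the groups. Nefl, the light subunit that the others assemble with, differed by 0.03 ± 0.05 with continuous ethanol (adjusted p 0.755, limma), Nefm, the medium subunit, by 0.01 ± 0.05 (0.968), Nefh, the heavy subunit, by -0.02 ± 0.06 (0.924) and Ina by -0.00 ± 0.05 (0.989). Nefm averaged 12.79 in each of the 3 groups and had the largest F-test p of all 47 genes. The 95% interval of each continuous ethanol difference lay within 0.15 of zero on both sides. Limited access differences of these genes ran from -0.01 (Ina) to 0.05 (Nefh).

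Growth cone proteins had the highest median of the families with continuous ethanol, 0.08, and 5 of 6 were above 0 (83.3%, all genes 53.1%). Marcks, a substrate of protein kinase C that links actin to the membrane, ran from 11.83 to 12.38 in water (median 12.16), from 11.92 to 12.24 in limited access (median 12.17) and from 12.18 to 12.47 in continuous ethanol (median 12.28). All 10 continuous ethanol arrays lay above the water mean, and no limited access array reached the continuous ethanol mean. The difference from water was 0.17 ± 0.06 (95% interval 0.06 to 0.28) and that of limited access from continuous ethanol -0.16 ± 0.05, with adjusted p of 0.167 and 0.526 in limma. Leaving out the 5 arrays gave 0.18 for the first, with an adjusted p of 0.381. Its 5 tested probe sets all gave a positive value for continuous ethanol, from 0.08 to 0.26, with adjusted p of 0.167 to 0.701 in limma.

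Crmp1, a collapsin response mediator that carries semaphorin signals to microtubules, ran from 10.68 to 10.96 in water (median 10.90), from 10.79 to 10.96 in limited access (median 10.89) and from 10.73 to 11.19 in continuous ethanol (median 10.99). The spread was widest in continuous ethanol, and 8 of its 10 arrays lay above the water mean. The difference was 0.12 ± 0.05 (adjusted p 0.217, limma), and limited access differed from continuous ethanol by -0.10 ± 0.04 (0.527). Its relative Dpysl3 differed the other way. It ran from 7.30 to 7.64 in water (median 7.38), from 7.25 to 7.70 in limited access (median 7.44) and from 7.15 to 7.44 in continuous ethanol (median 7.38), levels close to the filter at 6.86. The continuous ethanol arrays were all below the water mean, although the medians of these groups were level. Dpysl3 differed by -0.10 ± 0.05 from water (adjusted p 0.385, limma) and had the highest difference of limited access from continuous ethanol, 0.14 ± 0.05 (0.526). Gap43, the growth-associated protein of axon terminals, differed by 0.07 ± 0.04 with continuous ethanol (adjusted p 0.376, limma) and by 0.03 without the 5 arrays. With limited access all 6 growth cone genes were above 0 (all genes 48.5%), between 0.01 and 0.04.

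The motors carried the largest and least certain value. Kif5c, a neuronal kinesin-1 heavy chain, ran from 8.04 to 9.87 in water (median 9.69), from 9.25 to 10.13 in limited access (median 9.47) and from 8.86 to 10.20 in continuous ethanol (median 9.75). Water replicates 9 and 7, at 8.04 and 8.15, lay well below the other water arrays, and the medians of water and continuous ethanol were close. The difference was 0.42 ± 0.21 (95% interval -0.01 to 0.84) with an adjusted p of 0.325 in limma, and it was 0.26 without water replicate 9 and 0.27 without water replicate 7. Its other probe sets gave 0.03 and -0.07. Within groups Kif5c had an SD of 0.485, against a median of 0.0888 over the set and 0.105 over all genes. Kif5b, the kinesin-1 heavy chain found in most cells, differed by 0.09 ± 0.07 on its brightest probe set and by -0.09 ± 0.04 on the dimmer one (adjusted p 0.474 and 0.281, limma). Its limited access arrays differed from continuous ethanol by -0.13 ± 0.06 (0.535), and the 5 arrays lay 0.17 and 0.27 below the rest of their groups. Kif5a, the third kinesin-1 heavy chain, and the dynein heavy chain Dync1h1, which moves cargo back to the cell body, differed by -0.02 ± 0.05 and 0.03 ± 0.03 (adjusted p 0.871 and 0.728, limma).

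In the membrane skeleton, alpha-spectrin (Sptan1) was 13.93 ± 0.03 in water (SD, n = 9), 13.92 ± 0.06 in limited access (SD, n = 10) and 13.86 ± 0.05 in continuous ethanol (SD, n = 10). It differed by -0.06 ± 0.03 with continuous ethanol (adjusted p 0.262, limma), with 2 of 10 arrays above the water mean, and limited access was 0.06 ± 0.03 above continuous ethanol (0.531). Ankyrin 2 (Ank2), which anchors membrane proteins to spectrin, ran from 12.42 to 12.76 in water (median 12.54), from 12.40 to 12.77 in limited access (median 12.61) and from 12.56 to 12.93 in continuous ethanol (median 12.66). The groups overlapped over most of their range. It differed by 0.12 ± 0.05 with continuous ethanol (adjusted p 0.266, limma), while its dimmer tested probe set gave -0.10 ± 0.06. Sptbn1, the partner of alpha-spectrin, differed by -0.01 ± 0.02 (0.932).

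Of the 21 genes with at least 2 tested probe sets, 12 had all probe sets on the same side of 0 for continuous ethanol against water and 9 did not. In 4 of the 9, which were Mapt, Map6, Kif5b and Ank2, 1 of the probe sets had an unadjusted p under 0.05. Probe sets of a gene can read different transcript ends or isoforms, and which of these each one read was not tested.

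**Figure D4:**
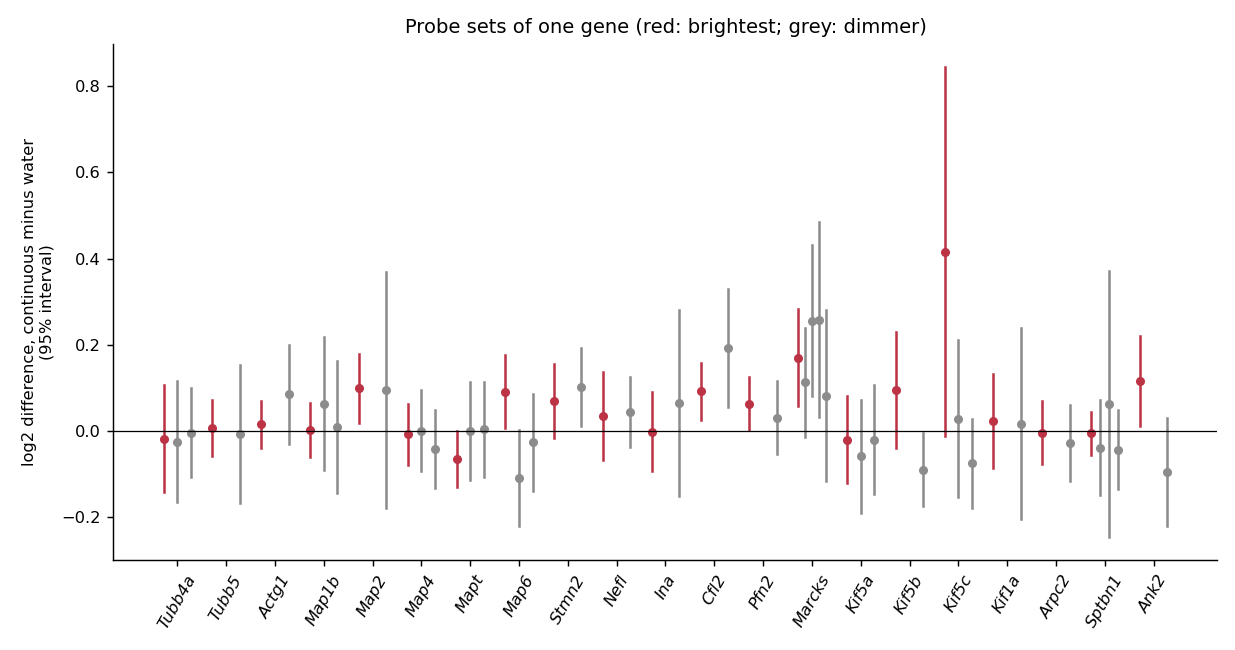
Continuous ethanol minus water on the log2 scale, with 95% confidence intervals, for each tested probe set of the 21 genes that have at least 2; red points are the brightest probe set, grey points the dimmer ones. Marcks has 5 positive probe sets between 0.08 and 0.26, while Map6, Mapt, Kif5b and Ank2 have probe sets on both sides of 0.

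The limited access group lay close to water. Of the 47 genes, 2 (4.26%) had an unadjusted p under 0.05, Map6 and Stmn3, against 4.56% of all genes and 3.45% of the 637 bright ones, and the smallest adjusted p was 0.972 in limma. Both were higher than in water (all genes 2.18% higher and 2.38% lower). Differences ran from -0.09 for Map1a to 0.25 for Kif5c with a median of 0.02, and 32 were above 0 (68.1%, all genes 48.5%). Both ethanol groups were set against the same 9 water arrays, so a low or high water array moves both differences together. Without the 5 arrays the count at an unadjusted p under 0.05 was 0 of 47, against 4.02% of all genes.

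Set directly against continuous ethanol, limited access had 8 of 47 genes (17.0%) at an unadjusted p under 0.05, against 9.41% of all genes and 7.22% of the 637 bright ones. The 2 higher in limited access were Dpysl3 and Sptan1 (all genes 3.03%), and the 6 lower were Tubb2b, Marcks, Dcx, Crmp1, Map2 and Kif5b (all genes 6.38%). Differences ran from -0.21 for Dcx to 0.14 for Dpysl3 with a median of -0.01. The number above 0 was 10 of 47 (21.3%, all genes 44.0%). It was 21 after a further quantile normalization and 14 after centring on array medians, since the 11 genes that turned sign differed by at most 0.01. Without the 5 arrays 3 of 47 (6.38%) had an unadjusted p under 0.05, against 4.16% of all genes. The beta-actin 3′ minus 5′ signal differed by 0.10 between these groups: with the mean 3′ to 5′ signal of beta-actin and GAPDH as a covariate the count was 3 (6.38%, all genes 3.48%), and with that of GAPDH alone it was 12 (25.5%, all genes 15.5%).

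Partners of 1 filament, complex or family, and Gap43 with Stmn2, which are both proteins of the growth cone, were compared array by array after the group means were removed, in 16 pairs over 29 arrays, with permutation tests adjusted over the pairs. Nefl and Nefm varied together (r = 0.62, rho = 0.52, permutation p = 0.00019, adjusted 0.00304), as did Arpc2 and Arpc3 (r = 0.56, rho = 0.32, adjusted permutation p = 0.0108), Nefm and Nefh (r = 0.56, rho = 0.29, 0.0196) and Gap43 and Stmn2 (r = 0.51, rho = 0.51, 0.0196). Dpysl2 and Dpysl3 varied in opposite directions (r = -0.58, rho = -0.48, adjusted permutation p = 0.00648). None of these 5 passed once the 2 arrays farthest from the median of the first gene were left out: r was then 0.44 for Nefl and Nefm, 0.39 for Arpc2 and Arpc3, 0.15 for Nefm and Nefh, 0.47 for Gap43 and Stmn2 and -0.46 for Dpysl2 and Dpysl3. Without the 5 arrays that stood apart, only Nefl and Nefm passed among the 16 pairs (r = 0.60, adjusted permutation p = 0.0206). The test did not pass for Nefl and Nefh (r = 0.10, adjusted permutation p = 0.767), and the pair Kif5a and Kif5b had r = 0.01.

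A wider list of 145 other cytoskeletal genes, which holds tubulin cofactors, dynactin, capping proteins and other filaments, had 125 tested members, and none passed in any comparison. With continuous ethanol 7 were higher and 7 lower at an unadjusted p under 0.05 (11.2%, against 16.7% of all genes), with a median of 0.01. Thymosin beta 4 (Tmsb4x), which holds actin monomers, differed by 0.06 ± 0.02 (adjusted p 0.217, limma), and Basp1, a growth cone protein related in function to Gap43 and Marcks, by 0.13 ± 0.06 with continuous ethanol and 0.15 with limited access (0.278 and 0.972). Gelsolin (Gsn), an actin-severing protein, differed by -0.01 ± 0.06 (adjusted p 0.964, limma). Vimentin (Vim), an intermediate filament of vessels, meninges and glia, had the lowest value, -0.33 ± 0.18 (adjusted p 0.373, limma). It ran from 11.74 to 12.90 in water, from 11.56 to 12.59 in limited access and from 10.52 to 12.51 in continuous ethanol. The score of 12 leptomeningeal markers, all of them above the filter, ran from -0.24 to 0.95 in water, from -0.35 to 0.64 in limited access and from -1.49 to 0.62 in continuous ethanol, and its part in the Vim value was not tested.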

How the data were processed

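The authors deposited log2 expression values made with RMA (background correction, quantile normalization and probe summary), per the submitters' processing notes; its software and version are not given in the sources used here, and the values themselves showed the log base. Total RNA was extracted with Trizol and RNeasy columns and hybridised as biotinylated cRNA, per the labels' protocols. Because RMA makes array distributions nearly equal, a shift common to every transcript is hidden.

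The platform table gave 20826 probe sets 1 symbol, 436 several and 9780 none, and 57 control probe sets were left out. The dimmest 30 percent (mean at or below 6.86) were removed, and 21729 probe sets entered 1 limma 3.58.1 model (R 4.3.3; lmFit, eBayes) with group as its factor over all 29 arrays. Tests were two-sided, with Benjamini-Hochberg adjustment over all tested probe sets and a threshold of 0.05; single adjusted p-values in brackets in the text are from this fit. The fit was tested on simulated data. Beta-actin control probe sets were compared by exact permutation tests, and pairs of genes by permutation tests with 100000 resamples (Python 3.11.15, scipy 1.17.1). A marker score averages, over the markers, an array's log2 value minus the mean over the 29 arrays.

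The 52 genes, the other lists and the alternatives were chosen with earlier results of these data known. Genes named were the 10 of smallest F-test p, 18 classic members whatever their p, the extremes of each comparison and family and those whose probe sets disagreed; of the wider list, those that passed and 7 set by name, of which Tmsb10 and Dynll1 had no tested probe set of their own and 1 is not reported here. The genes at an unadjusted p under 0.05 were also named. Alternatives covered filters, scaling, prior, array weights, a replicate block, covariates, the 5 arrays apart, probe set choice and leaving out each array. Promoters came from RefSeq on GRCr8.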

Additional observations from a re-analysis of the deposited data

Results flagged for a closer look

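In each group, the array farthest from the others was compared with Dixon's limit for the 47 genes and the beta-actin measures, 153 groups in all, and 12 exceeded it, where chance gives about 1 in 20. Low arrays came from limited access replicates 6 and 7, both among the 5 that stood apart, and from 1 other: replicate 6 was lowest for Nefm at 12.46 (next 12.75), for Cfl2 at 11.52 (next 11.67) and for Gap43 at 13.32 (next 13.49), replicate 7 for Arpc2 at 12.15 (next 12.31), and continuous ethanol replicate 7 for Sptbn1 at 13.77 (next 13.88). High arrays were continuous ethanol replicate 3 for Tubb4b at 13.51 (next 13.42) and for Wasf1, a subunit of the complex that activates Arp2/3, at 11.95 (next 11.69), replicate 10 for Map4 at 11.84 (next 11.71) and replicate 8 for Kif5a at 13.08 (next 12.88). Water replicate 7 was highest for Nefm at 13.02 (next 12.82) and water replicate 9 for Dcx at 9.45 (next 9.13). The 3′ beta-actin control was highest in limited access replicate 10, at 13.74 (next 13.60). The low Kif5c values of water replicates 7 and 9 did not exceed the limit, since they lay close to each other.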

How the results depend on the processing

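No cytoskeletal gene passed in any of the 3 comparisons under any of 15 alternative settings or with any of the 29 arrays left out, nor in the F test under 14 settings. The count at an unadjusted p under 0.05 for continuous ethanol against water moved from 15 (all genes 16.7%) to between 6 (the 5 arrays as a block; all genes 8.13%) and 16 (replicate block; all genes 17.5%), and with single arrays left out to between 9 (without water replicate 6; all genes 12.6%) and 18 (without water replicate 4; all genes 20.2%), so the share over all genes moved too. For limited access against water that count went from 2 to between 0 and 2, or 5 without limited access replicate 6 (all genes 6.20%) and 4 without water replicate 7 (4.21%), and for limited access against continuous ethanol from 8 to between 3 and 12, with 4 without continuous ethanol replicate 9 (all genes 8.67%). Over all probe sets, continuous ethanol against water called 33, but 12 without the 5 arrays, 14 with them as a block, 20 with 1 probe set per gene, 18 with the mean of a gene's probe sets, 94 without water replicate 4, 66 without limited access replicate 6, 59 without water replicate 8 and 18 without water replicate 5; limited access called at most 1 against water and 3 against continuous ethanol. The adjusted p of Tubb2b ran from 0.0792 to 0.501 over the settings. The number of pairs that passed fell from 5 to 3 by Spearman's rho, 0 without the 2 farthest arrays and 1 without the 5 arrays. Beta-actin tests that passed ranged from 0 to 4 with single arrays left out. With the replicate number as a block, 0 genes of the set passed and 16 had an unadjusted p under 0.05. A correlation over 0.1 was found in 12 of 28 same-number pairs (mean 0.08), against 65 of 252 other pairs (mean -0.01). The arrays were not treated as paired because not every same-number pair reached it. That rule is too strict to decide whether they were paired. Pairs with Actb or Cfl1 were not run, as neither has a probe set of its own. The cause of these shifts was not tested.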
